A study of Mus musculus with 4 samples.

Results

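Wwtr1 encodes TAZ, a transcriptional coactivator, and was followed here through the cell types of the mouse liver as 1 of the 55488 gene rows of a single-cell RNA sequencing series. The row was found by its symbol, Wwtr1, since the symbol Taz belongs to a different gene, tafazzin. The data comprised 4 libraries, each from the liver of 1 mouse. WT was the reference, YAPKO carried floxed alleles of Yap1, TAZKO floxed alleles of Wwtr1, and DKO those of both genes, in each case with Alb-Cre, a Cre recombinase driven by the albumin promoter. Alb-Cre deletes the genes in hepatocytes (HCs) and biliary epithelial cells (BECs), so that non-parenchymal cells such as endothelial cells (ECs) kept intact alleles in every mouse. HCs and non-parenchymal cells were isolated separately and pooled before loading, and the proportions of cells in a library are therefore no proportions of the liver.

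TAZ and its paralogue YAP, encoded by Yap1, are the end points of the Hippo pathway. The kinases MST1 and MST2 (Stk4 and Stk3) activate LATS1 and LATS2, which phosphorylate YAP and TAZ and keep them in the cytoplasm, where they are degraded. Unphosphorylated YAP and TAZ enter the nucleus and bind TEAD proteins (Tead1 to Tead4), through which they reach DNA. In the liver the pathway is known for its control of organ size and of bile duct formation, and TAZ also has known roles in ECs and in hepatic stellate cells (HSCs).

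Wwtr1 (ENSMUSG00000027803) lies on the minus strand of mouse chromosome 3, at chr3:57455649-57575910 in GRCm38/mm10 with GENCODE release M21. Its annotated coding transcripts Wwtr1-201 and Wwtr1-202 have 7 exons each, and the last exon, chr3:57455649-57459110 in Wwtr1-201, holds the end of the coding sequence and the whole of the 3′ UTR. The 10x method captures transcripts by the poly(A) tail, so that its counts of unique molecular identifiers (UMIs) come mainly from this end. The study's RT-qPCR primers for TAZ, which are shown because they read a different stretch of the transcript, matched both transcripts, with the forward primer across the junction of exons 3 and 4 and the reverse primer in exon 4 at chr3:57477468-57477487. The exon that is floxed is not given in the sources used here, and a recombined allele may still give a transcript with the last exon. The UMI count of Wwtr1 is therefore no direct check of the deletion.
TAZ-for: cagccgaatctcgcaatgaatcac
TAZ-rev: actcatgagccctgtgggtt

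The 250 bases before the RefSeq starts of Wwtr1 and Yap1 are shown because these are the 2 genes whose levels are set side by side below. The capitals mark GGAATG, the core of the TEAD motif. It was searched as GGAATG or CATTCC, that is on both strands, and occurred once in each window, 136 bases before the start of Wwtr1 and 141 bases before that of Yap1. Wwtr1 has a second RefSeq start, whose window is not shown, and there the motif lay 170 bases before the start. Of all 32851 RefSeq windows of this length, 12.6% held it, so that a match is common and describes the letters only. The windows are at chr3:57575911-57576160 for Wwtr1 and chr9:8004597-8004846 for Yap1 (GRCm38.p6, both on the minus strand).
Wwtr1: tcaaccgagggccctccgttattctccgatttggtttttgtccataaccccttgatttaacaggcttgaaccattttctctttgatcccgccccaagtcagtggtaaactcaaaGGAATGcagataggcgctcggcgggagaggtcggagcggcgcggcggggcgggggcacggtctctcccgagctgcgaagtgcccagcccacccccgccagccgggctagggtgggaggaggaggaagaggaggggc
Yap1: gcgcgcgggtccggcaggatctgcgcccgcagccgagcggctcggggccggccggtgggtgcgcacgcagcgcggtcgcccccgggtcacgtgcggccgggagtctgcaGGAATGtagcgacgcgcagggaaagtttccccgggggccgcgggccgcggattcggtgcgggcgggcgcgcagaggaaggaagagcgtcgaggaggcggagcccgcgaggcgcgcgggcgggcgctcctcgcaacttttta

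Between 6275 and 8638 cells per library were kept, 30362 in all, with a median of 3555.5 to 7337 UMIs per cell. They held 9953 UMIs of Wwtr1, of which 60.8% were in ECs, and 4098 UMIs of Yap1. Cells were grouped by clustering without Wwtr1, and clusters were named by marker genes as HC, BEC, EC, HSC, KC (Kupffer cell), MAC (macrophage, led by Chil3 and F13a1), cDC and pDC (conventional and plasmacytoid dendritic cell), NEUT (neutrophil), T, B and NK cell, each name standing for cells like that type. Among their leading genes were Clec4g, Oit3 and Ptprb in ECs, Dcn, Colec11 and Reln in HSCs, Clec4f, Vsig4 and Marco in KCs, and Spp1, Epcam and Krt19 in BECs, while the largest of the HC clusters was led by glutathione transferases such as Gstm3 and Gsta2. Of the kept barcodes, 94 (0.311%) occurred in more than 1 library. All levels below are CPM, the UMIs of the gene scaled to 1000000 UMIs of the same cells. Intervals are exact at 95% and cover counting error only, and no difference between genotypes was tested, since each genotype had 1 mouse.

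Wwtr1 was highest in ECs and HSCs, and, on average over the libraries, lowest in T cells and NK cells among the types with intact alleles. In ECs its level was 155 CPM in WT, 164 CPM in YAPKO, 153 CPM in TAZKO and 176 CPM in DKO, a mean of 162 ± 10.7 CPM (SD, n = 4). In HSCs, the perisinusoidal cells that store vitamin A and turn fibrogenic after injury, it was 135, 143, 123 and 112 CPM in the same order of libraries, a mean of 128 ± 13.4 CPM (SD, n = 4). The lowest EC library lay above the highest HSC library. In a fit of all cell types with the library as a block, ECs exceeded HSCs by 0.38 ± 0.16 (SE) on the log2 scale, which missed the threshold of 0.05 (edgeR adjusted p = 0.0777). Of all 14677 genes tested, 22.9% passed in this comparison.

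Below ECs and HSCs came BECs, the cells that line bile ducts, with 68.7 CPM in WT and 57.9 CPM in YAPKO, from 54 and 32 cells. HSCs exceeded these BECs by 1.14 ± 0.27 on the log2 scale (edgeR adjusted p = 0.00112, with 30.1% of all genes called). This call was lost with cells of low EC marker level, where the difference turned to -0.31. With cells picked by markers the difference was 0.19, but only the HSCs of WT then reached 20 cells, so that setting cannot decide the call. The interval of the BEC level ran from 49.5 to 92.8 CPM in WT and from 37.9 to 84.9 CPM in YAPKO, so that the 2 libraries were not distinguishable. The BECs of TAZKO, whose Wwtr1 alleles are floxed, had 63.4 CPM (interval 38.2 to 99.0 CPM, 28 cells), and the 7 BECs of DKO held 2 UMIs. A lower level in the BECs of TAZKO was not detectable at this depth.

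pDCs, which make type I interferon, had 49.0 CPM in WT, 51.2 CPM in YAPKO, 28.5 CPM in TAZKO and 46.0 CPM in DKO. BECs and pDCs did not differ beyond their spread (log2 difference 0.37 ± 0.29, edgeR adjusted p = 0.392, 28.6% of all genes called). MACs had between 19.3 and 28.6 CPM over the 4 libraries, and pDCs exceeded them by 0.58 ± 0.20 on the log2 scale (edgeR adjusted p = 0.0221, 33.5% of all genes called), a call that was lost without YAPKO (0.45, edgeR adjusted p = 0.138) and with finer clustering at resolution 0.8 (0.35, edgeR adjusted p = 0.253), and with cells picked by markers (0.66, edgeR adjusted p = 0.729). With the cells of high doublet scores left out, the pDC levels were 9.82, 21.9, 26.9 and 42.8 CPM, and TAZKO lay above WT in place of below it. KCs, the resident macrophages of the sinusoid, had 21.0, 16.2, 20.2 and 26.9 CPM. They did not differ from MACs beyond the spread (0.22 ± 0.19, edgeR adjusted p = 0.448, 23.2% of all genes called). Without high doublet scores KCs had 10.95, 7.41, 16.0 and 10.8 CPM, and MACs 7.37, 5.99, 10.0 and 18.8 CPM.

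cDCs had between 3.97 and 13.3 CPM, lower than KCs by the fit (0.95 ± 0.23, edgeR adjusted p = 0.000896, 46.7% of all genes called). Without high doublet scores cDCs had 4.10, 3.13, 5.29 and 1.41 CPM. HCs had 5.47 CPM in WT and 13.2 CPM in YAPKO. The mean of these 2 libraries, 9.35 CPM, lay beside the 9.55 CPM of cDCs over 4 libraries, yet the fit placed cDCs below HCs by 0.84 ± 0.27 (edgeR adjusted p = 0.00541, 71.3% of all genes called). With all cells this order rests on the normalization factors of the fit, which were 0.444 on average for HCs and 0.922 for cDCs. With CPM alone it turned to 0.11 in favour of cDCs, and without YAPKO the call was lost (-0.56, edgeR adjusted p = 0.165). Without high doublet scores cDCs lay below HCs by the fit (-2.56, edgeR adjusted p = 3.19e-06) and also by CPM, since HCs then had 5.18 CPM in WT and 13.2 CPM in YAPKO.

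NEUTs had between 2.70 and 10.0 CPM from 19 UMIs in all. They differed from HCs by 0.77 ± 0.40 (edgeR adjusted p = 0.092, 65.1% of all genes called) and from B cells by 0.98 ± 0.50 (edgeR adjusted p = 0.113, 47.2% of all genes called), neither past the threshold. Both depend on the setting. HCs passed it against NEUTs in 6 settings, without WT (1.07, edgeR adjusted p = 0.049), without a filter on low counts (0.98, edgeR adjusted p = 0.0283), without batch correction (0.91, edgeR adjusted p = 0.0412), without high doublet scores (1.28, edgeR adjusted p = 0.0468), among cells without EC or HSC marker UMIs (1.93, edgeR adjusted p = 0.00444) and among cells of low EC marker level (1.72, edgeR adjusted p = 0.00443). NEUTs passed it against B cells without high doublet scores (2.78, edgeR adjusted p = 0.0153), with cells picked by markers (3.48, edgeR adjusted p = 0.00274), with limits read as UMIs (3.65, edgeR adjusted p = 5.29e-06) and among cells of low EC marker level, as given further on. B cells had between 3.26 and 7.67 CPM and T cells between 1.14 and 2.95 CPM, a log2 difference of 1.39 ± 0.46 (edgeR adjusted p = 0.0205, 25.6% of all genes called) that was no longer called without WT (0.97, edgeR adjusted p = 0.188) or without DKO (1.42, edgeR adjusted p = 0.0565). It was lost as well without high doublet scores (0.74, edgeR adjusted p = 0.696), with cells picked by markers (0.23, edgeR adjusted p = 0.941) and with the limits on genes read as limits on UMIs (1.25, edgeR adjusted p = 0.376). NK cells held no UMI of Wwtr1 in 450 cells, in which 3 UMIs would give a level of 1.78 CPM. The comparison with T cells, which rests on this count of 0, missed the threshold (edgeR adjusted p = 0.139, 8.86% of all genes called).

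**Figure D1:**
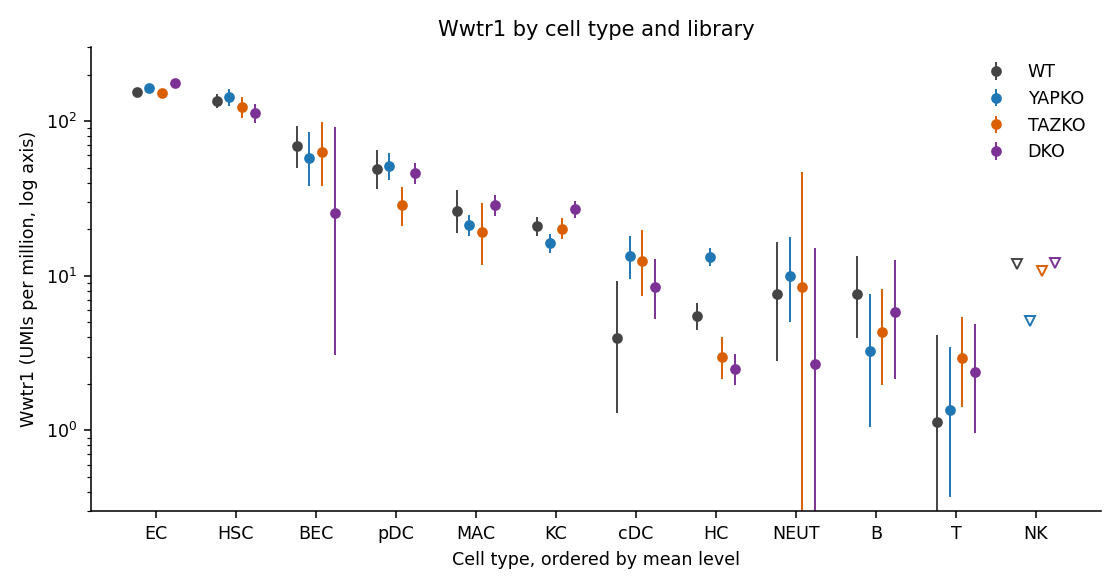
Wwtr1 level in CPM on a log axis for 12 cell types in the 4 libraries, with exact 95% Poisson intervals of the counts; open triangles are the upper limits of NK cells, which held no UMI. ECs and HSCs sit between 112 and 176 CPM in every library, and T cells between 1.14 and 2.95 CPM.

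Types farther apart in this order were compared in the same fit. ECs exceeded HCs by 2.80 ± 0.23 on the log2 scale (edgeR adjusted p = 9.17e-14, 71.7% of all genes called) and KCs by 2.69 ± 0.17 (edgeR adjusted p = 8.07e-17, 59.1% of all genes called). With the types other than ECs reduced to cells of low EC marker level the difference from KCs was 6.19, with cells picked by markers 5.997, with limits read as UMIs 5.26 and without high doublet scores 3.55. HSCs exceeded HCs by 2.41 ± 0.23 (edgeR adjusted p = 6.24e-12, 71.7% of all genes called), a call that was lost with cells of low EC marker level (0.51, edgeR adjusted p = 0.549). With cells picked by markers the difference was 1.02. Only the HSCs of WT then reached 20 cells (21 cells with 6 UMIs of Wwtr1), so that setting cannot decide the call. Against B cells, HCs were higher by 1.75 ± 0.32 (edgeR adjusted p = 1.07e-05, 67.8% of all genes called) and KCs by 1.86 ± 0.29 (edgeR adjusted p = 8.86e-07, 61.3% of all genes called). The call of KCs was lost with cells picked by markers (1.34, edgeR adjusted p = 0.172), with limits read as UMIs (1.36, edgeR adjusted p = 0.133) and with cells of low EC marker level (1.01, edgeR adjusted p = 0.238). Without normalization factors the difference between HCs and B cells missed the threshold (0.80, edgeR adjusted p = 0.0535), and in WT the CPM of HCs (5.47) lay below that of B cells (7.67). The same difference was 4.23 with cells of low EC marker level, 4.48 with cells picked by markers, 3.37 with limits read as UMIs and 4.07 without high doublet scores. Without these factors the median of all genes between ECs and HCs moved from -0.08 to 1.20, and Wwtr1 moved with it to 4.15.

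The share of cells with at least 1 UMI of Wwtr1 followed the depth of the library. In ECs it was 50% in WT, 65.7% in YAPKO, 40.5% in TAZKO and 57.9% in DKO, beside median depths of 5201, 7600, 3847.5 and 5660 UMIs. After each cell was thinned to 1000 UMIs, the shares were 14.7%, 14.4%, 13.6% and 13.9%, a smaller spread between libraries, with WT no longer below DKO and YAPKO. HSCs thinned in the same way gave between 8.89% and 15.3%, KCs between 1.42% and 1.72%, and B cells between 0 and 0.694%, from median depths of 2181.5 to 2945.5 UMIs before thinning. Single ECs held up to 10 UMIs of Wwtr1, and 1.51% to 7.46% of ECs had 4 or more.

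Markers of ECs moved with Wwtr1 through the other cell types. A sum over 8 EC markers (Stab2, Clec4g, Kdr, Pecam1, Cdh5, Ptprb, Oit3 and Eng) was expressed as a percentage of its level in the ECs of the same library. All 8 were above 0 in each of the other 11 types when the libraries were averaged. In HSCs the EC marker level was 52.4% to 70.9% of that of ECs, and Wwtr1 was 63.5% to 86.8%. In KCs the EC marker level was 11.7% to 16.5% and Wwtr1 9.88% to 15.2%, in MACs 11.8% to 17.1% and 12.6% to 16.9%, and in pDCs 17.0% to 24.9% and 18.6% to 31.6%. In B cells the corresponding ranges were 1.86% to 5.10% and 1.98% to 4.94%. In HCs the EC marker level was 0.454% to 1.37% while Wwtr1 reached 3.52% of the EC level in WT and 8.04% in YAPKO. In BECs Wwtr1 lay above the EC marker level in YAPKO (35.3% beside 7.20%), WT (44.3% beside 32.6%) and TAZKO (41.5% beside 32.4%). In the BECs of DKO it lay below (14.4% beside 19.1%). In NEUTs, from few UMIs, it lay above in WT (4.92% beside 1.44%), YAPKO (6.10% beside 3.09%) and TAZKO (5.54% beside 2.23%). In the NEUTs of DKO it lay below (1.53% beside 1.85%).

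**Figure D2:**
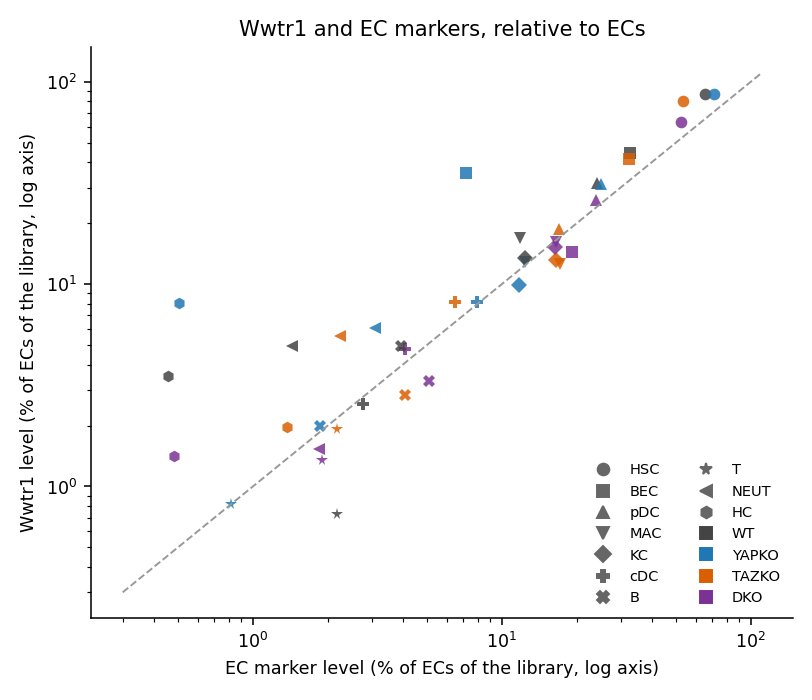
Wwtr1 level against the level of 8 EC markers, both in percent of the ECs of the same library on log axes; symbols mark cell types, colours libraries, and the dashed line equal percentages. KCs, MACs and B cells lie near the line, and HCs of WT and YAPKO lie above it at 3.52% and 8.04% of the EC level of Wwtr1.

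The ratio of Wwtr1 to EC marker UMIs was compared next. ECs held 9.88 to 12.2 UMIs of Wwtr1 per 1000 EC marker UMIs over the 4 libraries. KCs held 8.51 to 11.4, MACs 7.81 to 14.2 and B cells 7.29 to 12.5, ranges that overlapped that of ECs. HSCs held 13.1 to 16.0 and pDCs 11.6 to 13.8, both above the ECs in each library. HCs held 76.6 in WT and 177 in YAPKO. BECs held 54.2 in YAPKO, but 13.4 in WT, 13.6 in TAZKO and 9.17 in DKO. NEUTs, from few UMIs, held 33.7 in WT, 21.8 in YAPKO, 26.3 in TAZKO and 10.1 in DKO. The KC value depends on Cdh5, an endothelial cadherin, which reached 70.0% of its EC level in KCs, while the other 7 markers reached 9.31% to 17.5%. Without Cdh5 KCs held 13.1 to 14.3 and ECs 10.4 to 13 UMIs of Wwtr1 per 1000.

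Cells were then separated by their own EC marker level. Of 3618 KCs, 71.5% had an EC marker level of at most 10% of that of ECs, and these held 5.96% of the Wwtr1 UMIs of KCs. Their level was 1.74 CPM in WT, 0.984 CPM in YAPKO, 2.91 CPM in TAZKO and 2.11 CPM in DKO, whereas the remaining KCs had 71.8, 67.0, 47.5 and 74.0 CPM. The 2 sets did not overlap in any library. KCs without any EC marker UMI held no Wwtr1 UMI in 230 cells, which allows a level of up to 3.74 CPM. The KCs with an EC marker level of 10 to 25% had 28.5 CPM, those with 25 to 50% had 68.0 CPM, and those with 50 to 75% had 105 CPM.

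The same held for the other leukocytes. With an EC marker level of at most 10%, the pooled level of Wwtr1 was 1.10 CPM in MACs (12 UMIs in 1164 cells), 1.48 CPM in pDCs (7 UMIs in 718 cells), 0.427 CPM in cDCs (3 UMIs in 636 cells), 0.844 CPM in B cells (5 UMIs in 1757 cells) and 0.283 CPM in T cells (3 UMIs in 2443 cells). The remaining cells of these types had 77.2, 103, 63.4, 94.2 and 46.9 CPM. Between the cells of low EC marker level, pDCs no longer exceeded MACs past the threshold (0.20 ± 0.82, edgeR adjusted p = 0.902). NEUTs of low EC marker level had 3.96 CPM (9 UMIs in 941 cells) and exceeded B cells by 2.5 ± 0.93 (edgeR adjusted p = 0.0234).

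BECs held Wwtr1 also at a low EC marker level. The 68 BECs with an EC marker level of at most 10% held 28 UMIs of Wwtr1, a level of 39.1 CPM (interval 26.0 to 56.5 CPM), with 43.6 CPM in WT and 43.0 CPM in YAPKO. The 51 BECs without any EC marker UMI had 40.3 CPM (interval 24.6 to 62.2 CPM). With cells of low EC marker level, BECs exceeded pDCs by 4.51 ± 0.68 (edgeR adjusted p = 1.16e-06), a comparison that missed the threshold with all cells and passed it with cells picked by markers (4.12, edgeR adjusted p = 1.89e-05). In TAZKO, 11 such BECs held 2 UMIs (21.4 CPM, interval 2.59 to 77.3 CPM), which cannot be set apart from WT.

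HSCs had few cells of this kind, 54 of 736. These held 12 UMIs of Wwtr1, a level of 27.4 CPM (interval 14.1 to 47.8 CPM), whereas the remaining HSCs had 135 CPM. Their level was 20.6 CPM in WT, 17.1 CPM in YAPKO, 51.0 CPM in TAZKO and 28.5 CPM in DKO, each from 1 to 5 UMIs. ECs exceeded the HSCs of low EC marker level by 2.47 ± 0.44 (edgeR adjusted p = 2.77e-05), in place of 0.38 for all HSCs. The level of Wwtr1 in HSCs therefore ranged from 27.4 to 173 CPM with the EC marker level of the cells taken, and the part of EC RNA in it was not tested.

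**Figure D3:**
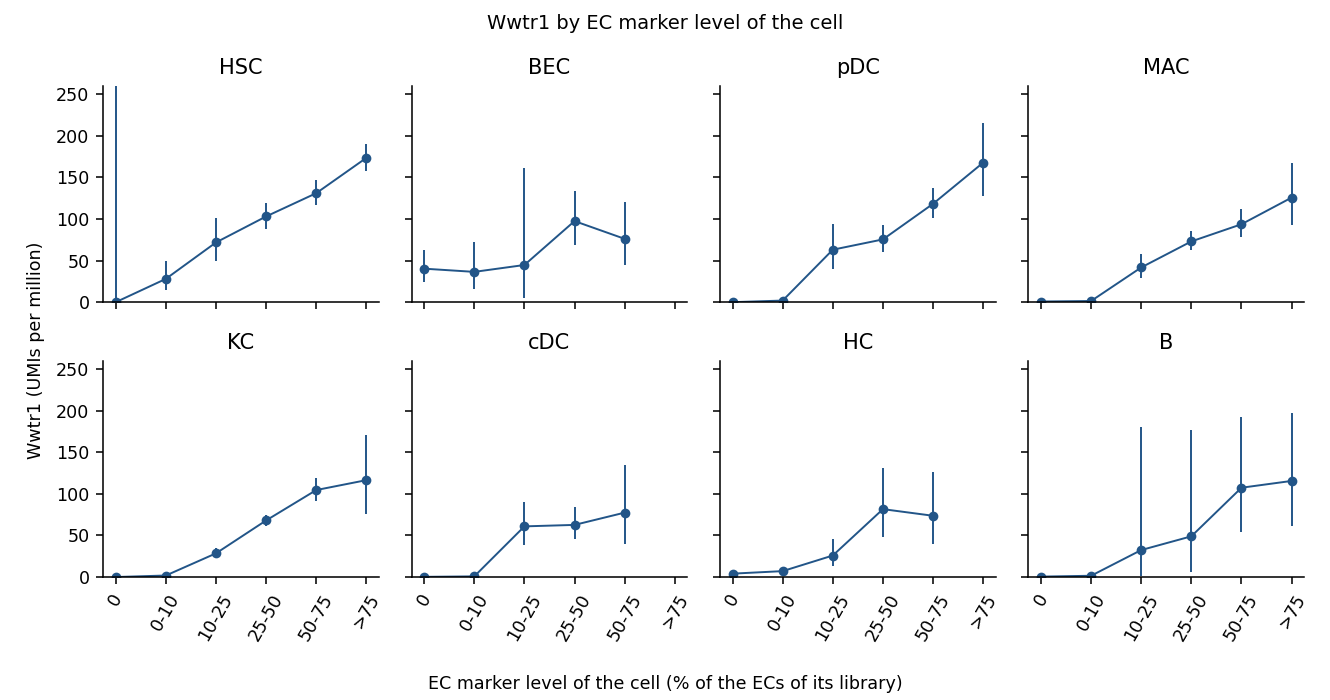
Wwtr1 level in CPM (libraries pooled, exact 95% Poisson intervals) in cells grouped by their EC marker level, as a percentage of the ECs of their library, for 8 cell types. KCs go from 0 UMIs in 230 cells without an EC marker UMI to 105 CPM at 50 to 75%, while BECs have 40.3 CPM without any EC marker UMI; the interval of the 9 HSCs in the lowest bin runs past the axis, and bins under 20 cells are wide.

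In HCs, where Alb-Cre deletes the floxed Wwtr1 alleles of TAZKO and DKO, the level of Wwtr1 differed between the libraries. Among HCs without any EC marker UMI it was 4.71 CPM in WT (50 UMIs in 1750 cells), 12.6 CPM in YAPKO (125 UMIs in 911 cells), 1.17 CPM in TAZKO (13 UMIs in 2701 cells) and 1.52 CPM in DKO (35 UMIs in 2521 cells). The log2 ratio to WT was 1.42 in YAPKO (interval 0.94 to 1.92), -2.01 in TAZKO (interval -3.02 to -1.11) and -1.63 in DKO (interval -2.30 to -0.98). YAPKO thus lay above WT, and TAZKO and DKO below it, by more than counting error, although the spread between mice of 1 genotype is unknown. With the limits on genes read as limits on UMIs, the intervals over all HCs held 0 in TAZKO (-0.50, -1.85 to 0.80) and DKO (-0.20, -1.60 to 1.14). These HCs held 10 and 9 UMIs of Wwtr1, beside 13 in WT. Over all HCs the ratios of TAZKO and DKO were nearer to 0, at -0.87 and -1.13. Over all genes, the HC libraries had a median log2 ratio to WT of 0.42 for YAPKO, 0.59 for TAZKO and 0.46 for DKO.

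The HCs of TAZKO held most of their Wwtr1 in few cells. Of 3068 HCs, 87 had an EC marker level above 10%, and these held 24 of the 42 UMIs of Wwtr1, a level of 67.5 CPM. The remaining 2981 HCs had 1.32 CPM. Among HCs with an EC marker UMI the level was 9.97 CPM in TAZKO beside 6.44 CPM in WT, the reverse of the order among HCs without one. The log2 ratio was 0.63 (interval -0.07 to 1.31), so that this reversed order lay within counting error.

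The depth of HCs differed as well, with a median of 2143.5 UMIs in WT, 5959 in YAPKO, 1829 in TAZKO and 6139 in DKO. Among HCs of 5000 or more UMIs Wwtr1 was 5.57 CPM in WT, 13.1 CPM in YAPKO, 1.85 CPM in TAZKO and 2.46 CPM in DKO, the same order of libraries as among HCs without an EC marker UMI. Among HCs under 5000 UMIs TAZKO had 5.17 CPM beside 5.03 CPM in WT, from 25 and 17 UMIs, and the difference was not detectable. HCs fell mainly into 2 clusters, a shallow one of 6023 cells and a deeper one of 3330 cells. In the deeper one Wwtr1 was 6.56, 13.4, 2.79 and 2.93 CPM, and in the shallow one 2.75, 12.4, 3.78 and 1.71 CPM. YAPKO was highest in both, with intervals that did not overlap those of WT.

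**Figure D4:**
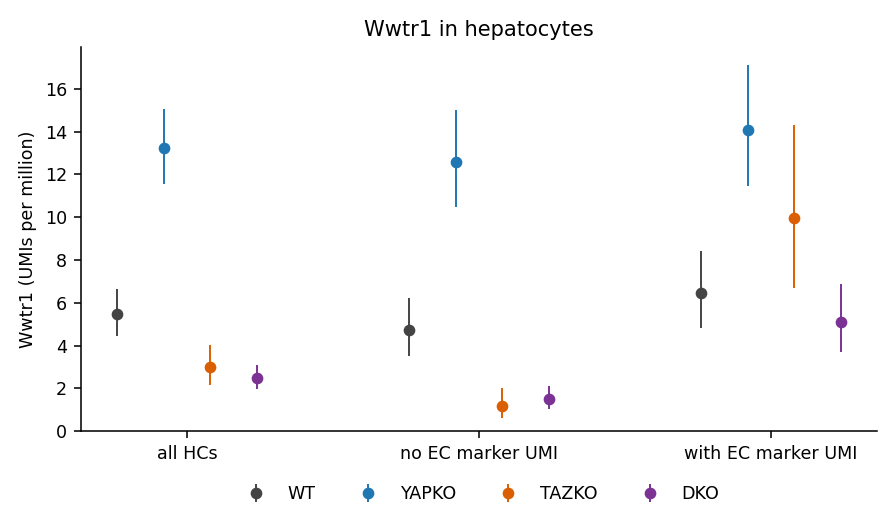
Wwtr1 level in CPM in HCs of the 4 libraries with exact 95% Poisson intervals, for all HCs and for HCs without and with an EC marker UMI. YAPKO is highest in each set, at 12.6 CPM without EC marker UMIs, and TAZKO goes from 1.17 CPM without to 9.97 CPM with them.

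Outside HCs and BECs, the levels of the knock-out libraries stayed close to WT in ECs. The log2 ratio to WT in ECs was 0.08 in YAPKO (interval -0.01 to 0.18), -0.02 in TAZKO (interval -0.13 to 0.09) and 0.18 in DKO (interval 0.08 to 0.29), beside medians of all genes of 0.05, 0.18 and 0.06. In HSCs the ratio was 0.08, -0.14 and -0.27 (interval of the last -0.53 to -0.0066), and in KCs -0.37 (interval -0.66 to -0.08), -0.05 and 0.36 (interval 0.08 to 0.63). Intervals that left out 0 were also found in cDCs, at 1.75 in YAPKO (0.41 to 3.45) and 1.65 in TAZKO (0.17 to 3.43), where WT held 5 UMIs, and in pDCs of TAZKO, at -0.78 (-1.38 to -0.18). The cDC ratios did not hold without high doublet scores (-0.39 and 0.37) or without batch correction (-0.36 and -0.09), where their intervals held 0, and the pDC ratio turned to 1.46 without high doublet scores. In HSCs of DKO the interval held 0 without high doublet scores (-0.13, -0.42 to 0.15) and without batch correction (-0.22, -0.45 to 0.0053). In KCs it held 0 for YAPKO with up to 20% mitochondrial UMIs (-0.0039, -0.27 to 0.27). For DKO it did so without high doublet scores (-0.015, -0.49 to 0.46) and without batch correction (0.066, -0.22 to 0.36). Without high doublet scores the KCs of TAZKO lay above WT (0.55, 0.12 to 0.98). The EC marker level of KCs was 12.4% of that of ECs in WT, 11.7% in YAPKO, 16.5% in TAZKO and 16.4% in DKO, and its part in the KC ratios was not tested.

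Yap1 was measured in the same cells. Because the capture of 2 transcripts can differ, the share of Wwtr1 in the sum of Wwtr1 and Yap1 UMIs was compared between cell types only. In ECs this share was 79.5% in WT, 80.1% in YAPKO, 72.1% in TAZKO and 80.6% in DKO. In HSCs it was 71.9%, 74.1%, 61.8% and 73.5%, lower than in the ECs of each library. The log2 odds were higher in ECs by 0.59 ± 0.07 (SD, n = 4), in 4 of 4 libraries, with an exact sign-flip permutation p of 0.13 (two-sided), the smallest that 4 libraries can give. KCs had 82.0%, 78.8%, 63.9% and 82.1%, and their log2 odds differed from ECs by 0.08 ± 0.34 (exact permutation p = 0.875), with ECs higher in 2 of 4 libraries. Among KCs of low EC marker level the difference was 1.43 ± 0.95 and with cells picked by markers 1.27 ± 0.71, each with ECs higher in 4 of 4 libraries (exact permutation p = 0.13). HSCs lay below KCs in 4 of 4 libraries by 0.51 ± 0.32 (SD), again with an exact permutation p of 0.13. Without high doublet scores HSCs were higher than KCs in 1 of 4 libraries (-0.40 ± 0.51). With cells picked by markers they were higher in 2 of 4 (-0.66 ± 2.21). With cells of low EC marker level, where HSCs hold 1 to 5 UMIs of Wwtr1 per library, HSCs lay below ECs in 3 and below KCs in 2 of 4 libraries. Over these 3 comparisons no p passes 0.05 with or without adjustment.

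In HCs of WT, Yap1 was the more counted of the pair, with a Wwtr1 share of 20.4%. Yap1 itself was 21.4 CPM in WT, 4.80 CPM in YAPKO, 47.0 CPM in TAZKO and 4.55 CPM in DKO, so that the libraries labelled with a Yap1 deletion were the lowest in their HCs. The Wwtr1 share of HCs was 73.4% in YAPKO, 5.98% in TAZKO and 35.4% in DKO. In BECs of WT the share was 63.6%, from 42 UMIs of Wwtr1 and 24 of Yap1.

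Sinusoidal ECs differ along the axis from portal to central vein, and Wwtr1 was compared between both ends. A subcluster led by Msr1, Ntn4 and Efnb2, named periportal-like, had 171 CPM in WT, 172 CPM in YAPKO, 177 CPM in TAZKO and 191 CPM in DKO. A subcluster led by Rspo3, Wnt9b and Selp, named pericentral-like after the Wnt and R-spondin signals that ECs near the central vein are known to make, had 128, 156, 127 and 167 CPM. The periportal-like cells were higher in 4 of 4 libraries, by 0.31 ± 0.16 on the log2 scale (SD, n = 4; exact sign-flip permutation p = 0.13, the smallest that 4 libraries can give). The difference was 0.39 ± 0.10 when ECs were split by zonal scores in place of subclusters. Yap1 differed in the same direction, by 0.33 ± 0.12 in 4 of 4 libraries, so that both genes were higher in periportal-like ECs. Per 1000 EC marker UMIs the difference in Wwtr1 was 0.38 ± 0.22, again in 4 of 4 libraries. Large vessel-like ECs, led by Vwf, Edn1 and Gja5, had 144, 178, 151 and 181 CPM from 25 to 37 cells per library, with intervals that overlapped those of both other subclusters. A shallow subcluster led by HC genes such as Mup11 and Ttr had 242 CPM in WT, 197 in YAPKO, 192 in TAZKO and 167 in DKO. It lay above the periportal-like cells in every library but DKO. The subclusters came from the same cells, and Wwtr1 took no part in forming them.

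**Figure D5:**
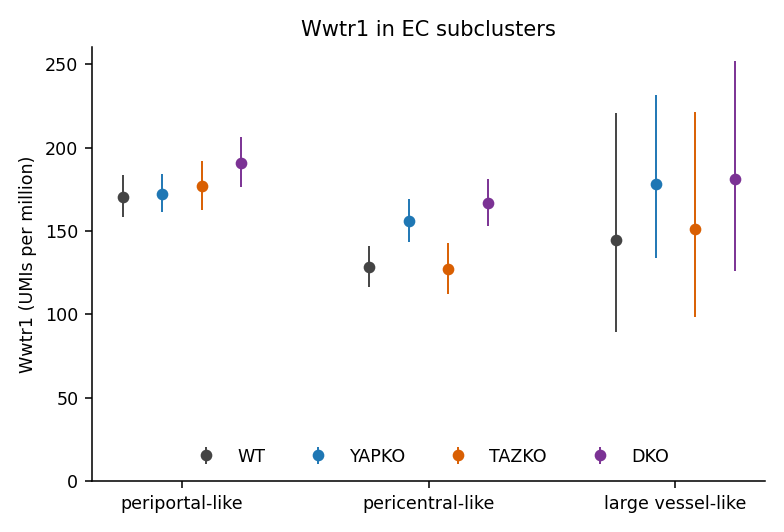
Wwtr1 level in CPM with exact 95% Poisson intervals in 3 EC subclusters of the 4 libraries. In each library the periportal-like point (171 to 191 CPM) is above the pericentral-like point (127 to 167 CPM).

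The partners of TAZ differed between ECs and HCs member by member. Tead1 was higher in ECs, at 53.3, 50.2, 61.0 and 53.1 CPM beside 6.10 and 13.8 CPM in the HCs of WT and YAPKO (0.86 ± 0.26 on the log2 scale of the fit, edgeR adjusted p = 0.00283), a call that was lost without WT (0.61, edgeR adjusted p = 0.0665). Tead2 was higher in ECs, at 16.9 to 21.9 CPM beside 0.158 and 0.234 CPM (4.94 ± 0.44, edgeR adjusted p = 1.61e-12). Tead4 was higher in ECs, at 4.94 to 13.9 CPM, whereas HCs held 2 UMIs. The ratio of the pooled CPM, without the normalization factors of the fit, was 145 with an interval of 39.7 to 1199. By this same measure Tead2 had a ratio of 95.7 (interval 46.2 to 239), so that the intervals of both genes overlapped. Tead3 ran the other way, with 0.0899 to 0.373 CPM in ECs beside 2.53 and 4.56 CPM in HCs (-5.81 ± 0.55, edgeR adjusted p = 1.56e-11). Of the 5 partners and cofactors tested, which include the TEAD cofactor Vgll4, 4 were higher and 1 lower in ECs, beside 34.0% of all genes higher and 37.6% lower.

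Of 17 kinases and scaffolds of the Hippo pathway, 12 were higher and 4 lower in ECs than in HCs, beside 34.0% of all genes higher and 37.6% lower, with a median log2 difference of 1.00 beside -0.08 over all genes. Without normalization factors 15 were higher and 1 lower, beside 9051 higher and 2552 lower of all 14677 genes. The medians were then 2.39 and 1.20. Amotl1, an angiomotin that holds YAP and TAZ at cell junctions, had 346 to 438 CPM in ECs beside 1.58 and 2.22 CPM in HCs. Ptpn14, a phosphatase that binds YAP and is also a listed target gene, had 27.9 to 32.9 CPM beside 0.210 and 0.819 CPM. Map4k4, a kinase that acts on LATS beside MST1 and MST2, had 144 to 189 CPM beside 2.95 and 7.08 CPM. Wwc1, the scaffold KIBRA, was lower in ECs, with 0.449 to 3.51 CPM beside 24.8 and 40.8 CPM. Stk4, Lats1 and Mob1b were lower by 0.91, 0.45 and 1.01 in the fit, but without normalization factors, which moved all genes as given above, Stk4 and Lats1 were higher and Mob1b was at 0.36 (edgeR adjusted p = 0.0604), so that their direction depends on the scaling. Taok3 did not pass the threshold in the fit (-0.19), but was higher without normalization factors (1.14, edgeR adjusted p = 6.82e-07). It was 0.47 without YAPKO and -0.39 without WT, so its direction depends on the setting as well.

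Of 22 YAP/TAZ target genes 21 could be tested, of which 12 were higher and 3 lower in ECs than in HCs, beside the same 34.0% and 37.6% of all genes, with a median log2 difference of 1.99 beside -0.08. Without normalization factors 14 were higher and 2 lower, beside the same 9051 and 2552 of all genes. Ccdc80, a secreted matrix protein, had 213 to 232 CPM in ECs beside 0.894 and 1.17 CPM in HCs. Ccn2, the connective tissue growth factor, had 120 CPM in WT, 142 CPM in YAPKO, 14.6 CPM in TAZKO and 43.3 CPM in DKO in ECs, beside 0.947 and 0.761 CPM in HCs. The EC levels of Ccn2 thus spread more between libraries than those of Wwtr1. Arhgef17 had 0.719 to 1.74 CPM in ECs and no UMI in HCs, which makes it at least 14.5-fold higher with the floor of 3 UMIs set over both HC libraries. The members lower in ECs were F3 and Dock5, and Myof, whose direction turned without normalization factors (-1.19 in the fit, 0.08 without them). The EC marker level of these HCs was 0.454% and 0.503% of that of ECs, close to the share of the EC level at which Ccdc80 and Amotl1 stood in HCs.

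The genes with the pattern most like that of Wwtr1 were sought by Pearson's r over the mean log2(CPM + 1) profile of 11 cell types, among 16366 genes with at least 100 UMIs. Among the first 10 were Adgrl2, Phldb2, Tcim, Slc39a8, Ephb4, Septin10, Tollip, Myo10 and Mb21d2, each with r from 0.98 to 1.00. Ephb4 is the venous Eph receptor, Adgrl2 an adhesion receptor of the latrophilin family, and Slc39a8 a zinc transporter. The profile points share libraries, depth and the EC marker levels given above. Only Ephb4 remained among the first 10 when the types other than ECs were reduced to cells of low EC marker level, a profile of 12 cell types in place of 11. The cells and the number of types changed together there, and the part of each was not tested. When 1 library was left out, 5 to 7 of the 10 were shared. Yap1 had an r of 0.87 and stood at rank 888, with ranks from 468 without WT to 1731 without YAPKO, 88 with cells of low EC marker level and 2658 by Spearman's correlation.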

How the data were processed

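Single-cell RNA was measured in 4 libraries of UMI counts, 1 mouse per genotype. The authors ran Cell Ranger on mm10 (version 6.0.1 by the methods and the submitters' processing notes, but 4.0.0 by the matrix headers) and deposited raw counts per gene and barcode; ages are not given in the labels. Here a barcode was kept if it had 500 to 6000 genes and a mitochondrial share of UMIs up to 10%. Counts were log-normalized in Python 3.11.15, and S and G2/M scores from the gene lists of Seurat 5.3.0 were regressed out. Wwtr1, Yap1, the listed Hippo pathway and target genes and mitochondrial genes were left out of the 2000 variable genes. From these, 20 components corrected by library and Louvain clustering at resolution 0.4 gave 18 clusters, of which 14 were named from marker lists. ECs were clustered again with 15 components at resolution 0.3. The rule that turned marker scores into names, and all measures by EC marker level, were set after the clusters were seen. Wwtr1, the gene lists and the tests were chosen with earlier results of these data known.

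Scrublet in scanpy 1.11.5, left to its automatic threshold, marked under 0.05% of cells in each library, so doublets were kept and the 8% of cells with the highest scores were left out as an alternative. UMIs were summed per cell type and library, with at least 20 cells, or at least 10 among cells of low EC marker level. The sums were tested with edgeR 4.0.16 (quasi-likelihood, TMM, library as a block) with Benjamini-Hochberg adjustment over 14677 genes. HCs and BECs of TAZKO and DKO were left out of this fit. The edgeR step was tested on simulated data. Library totals were 49022089 to 85989454 UMIs, a level from 3 UMIs was the floor, and Poisson, conditional binomial and Clopper-Pearson intervals at 95% cover counting error only. DESeq2 1.42.0 served as an alternative. The genes named were Wwtr1 and Yap1, the Tead genes, the 4 members each of the kinase and target lists with the largest difference between ECs and HCs past the threshold, the 10 genes most like Wwtr1, of which 1 is not reported here, and markers; other list members were named where a count or a change of direction turns on them, after their values were seen. Primer sequences are those of the study, and promoter windows are from RefSeq. No set test was run. Immunohistochemistry and other experiments of the study were not analysed here.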

Additional observations from a re-analysis of the deposited data

Results flagged for a closer look

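Wwtr1 was also counted in cells that no comparison used. 4 clusters stayed unnamed under the rule for names, which gives no type name to a cluster of dividing cells. A dividing cluster led by Cenpf, Top2a and Mki67 (329 cells) had 54.9 CPM of Wwtr1 with an EC marker level of 28.7% of that of ECs, and its 118 cells with a level of at most 10% held 1 UMI. A cluster led by Il2rb, Cxcr6 and Thy1 (229 cells) had 97.2 CPM with an EC marker level of 62.0%. A cluster led by Cxcl2, Cxcr2 and Csf3r (177 cells) had 127 CPM with an EC marker level of 88.2%. In neither of these was any cell at or below 10%, and both stayed unnamed because EC markers were high beside their own markers.

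A cluster of 52 cells led by Igfbp6, Clec3b, Dpt and Upk3b had 103 CPM of Wwtr1 with an EC marker level of 18.3%. It best matched mesothelial markers and stayed unnamed because it had 11 to 15 cells per library, under the 20 that a name required. Its level was 129 CPM in WT, 110 CPM in YAPKO, 125 CPM in TAZKO and 52.6 CPM in DKO. Unlike the leukocytes, its 36 cells with an EC marker level of at most 10% had 72.7 CPM (28 UMIs, interval 48.3 to 105 CPM). In DKO, where the EC marker level of this cluster was 1.09%, 15 cells held 8 UMIs.

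Barcodes outside the limits on genes and mitochondrial UMIs held Wwtr1 at 13.4 CPM in WT, 43.4 CPM in YAPKO, 10.2 CPM in TAZKO and 46.4 CPM in DKO. No explanation of these values was tested.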

How the results depend on the processing

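No paired analysis was possible because each genotype has 1 library; cell types were compared within libraries. Of the results that answer a comparison, 251 of the values under an alternative kept direction and side of the threshold or stayed within the spread, 31 moved, 6 fell below the threshold, 2 passed it and 4 changed sign; of the other values, for neighbours in the order of cell types and single genes, 187 stayed, 1 moved, 12 fell below the threshold, 12 passed it and 7 changed sign. A ratio to WT was counted as a change of sign only where its interval in the main setting left out 0. Other ratios to WT that changed sign were counted as within the spread or as moved. KCs of TAZKO, at -0.05 in the main setting and 1.11 with cells picked by markers, are among those that moved. The cause of these changes was not tested. Only cells of low EC marker level (chosen after the data were seen) gave log2 differences of 2.47 for ECs against HSCs, 0.51 for HSCs against HCs, 1.01 for KCs against B cells, -0.31 for HSCs against BECs and -0.67 for MACs against KCs, a log2 odds of 0.57 for HSCs against KCs, ratios to WT of -1.95 in HCs of TAZKO, -0.82 in KCs of YAPKO and 0.74 in KCs of TAZKO, and 1 of the 10 most alike genes (over 12 cell types in place of 11). Without a filter, ECs against HSCs passed at 0.49. Cells picked by markers without clustering gave 1.34 for KCs against B cells, below the threshold, and 1.02 for HSCs against HCs, where only the HSCs of WT reached 20 cells. They also gave -0.81 for MACs against KCs, and ratios to WT of -1.69 in HCs of TAZKO, 0.051 in ECs of DKO, 0.70 in HSCs of YAPKO, and -0.98, 1.11 and -0.026 in KCs of YAPKO, TAZKO and DKO. With the limits read as UMIs, KCs against B cells was 1.36, below the threshold, MACs against KCs -0.25, HCs against NEUTs -0.28, HCs of YAPKO 2.20, HCs of DKO -0.20, and ECs of YAPKO and TAZKO 0.20 and 0.12; HSCs, BECs, cDCs and NK cells then had no named cluster. Up to 20% mitochondrial UMIs gave -0.44 for MACs against KCs and -0.0039 for KCs of YAPKO. Without normalization factors HCs against B cells fell below the threshold at 0.80, cDCs against HCs 0.11, and 1 kinase or scaffold was lower in ECs. Means of log-normalized values gave 2.01, -0.33 and -0.63 in HCs of YAPKO, TAZKO and DKO, 0.23 and -0.17 in ECs of YAPKO and TAZKO, and -0.38 in KCs of TAZKO. Leaving out high doublet scores gave -1.97 in HCs of TAZKO, and 0.55 and -0.015 in KCs of TAZKO and DKO. HCs without any EC or HSC marker UMI gave -1.96 in TAZKO and -1.58 in DKO. Without batch correction HCs of DKO had -2.22 and KCs of DKO 0.066. Spearman's correlation shared 3 and a pseudocount of 10 shared 6 of the 10 most alike genes, and leaving out 1 library 5 to 7. Leaving out 1 library took the log2 odds of ECs against KCs from -0.075 to 0.18, negative without TAZKO. An alternative that left 3 or fewer UMIs in a cell type was given no value for its comparisons. Depth limits BECs, NK cells and NEUTs most.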
